A study of Mus musculus with 4 samples.

Results

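Cells that carried hashtag 3 were compared with cells that carried hashtag 1 in the second of 2 pooled single-cell RNA-seq experiments on early mouse T-cell progenitors. A hashtag is a DNA-barcoded antibody that labels the cells of 1 culture, so that pooled cultures can be told apart after sequencing. The hashtag columns were numbered 1 to 8 in the order of the deposited table. A cell was taken with at least 500 genes and under 10% of its unique molecular identifiers (UMIs) from mitochondrial genes, and its tag was the highest column if that held at least 50 counts and at least 3 times the second. This rule gave 1312 cells of tag 3 and 1035 cells of tag 1, which is 2347 of the 8335 tagged cells of experiment 2 and of the 17132 tagged cells of both experiments.

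The cells were grown from bone marrow on OP9-Dll1, a stromal line that displays the Notch ligand Dll1, with IL-7 and Flt3 ligand at 10 ng/ml each. All mice carried a Bcl2 transgene. In the overexpression arm, progenitors of B6.Bcl2 mice aged 8 to 10 weeks received an MSCV vector with Runx1 and mCherry or with mCherry alone on day 2 and were harvested on day 4 or 6. In the knockout arm, progenitors of B6.Cas9;Bcl2 mice received E42 vectors with guides against Runx1 and Runx3 (3 guide pairs a gene) or with control guides against luciferase on day 2 and were harvested on day 5 or 8. Live lineage-negative, CD45+ cells with the vector's markers were sorted, a gate set against stromal and lineage-positive cells, though 27 cells of tag 1 and 26 of tag 3 met stromal markers and 1 and 30 met mature T markers. The labels describe the cells as Phase 1 progenitors with high Kit. They tie no hashtag to an arm, a vector, a mouse or a day. Tags 1 and 3 were therefore 2 cultures of unknown condition, 1 a side, and culture time, vector, genotype and culture-to-culture variation cannot be told apart. The pair was chosen with its values known, so every difference between the tags is a description, without a test. Intervals in parentheses are exact 95% intervals for counting error only and say nothing of the spread between cultures.

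T-cell progenitors enter the pathway with stem and myeloid potential, and Notch signals from Dll1 induce Tcf7 and Gata3 and, later, Bcl11b, which closes off other fates. Phase 1 covers the steps before Bcl11b, when Kit is high and Il2ra (CD25) comes on. Interferons act on their receptors through Jak kinases. Type II interferon (Ifng) acts mainly through GAS elements, whereas type I interferons act mainly through ISRE elements, and both raise guanylate-binding proteins, immunity-related GTPases and antigen presentation genes.

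The barcodes of both hashtags are shown because they define the groups, with capitals for the 12 of 15 positions at which they differ.
tag 1: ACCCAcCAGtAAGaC
tag 3: CTTGCcGCAtGTCaT
Median top-tag counts were 190 in tag 1 cells and 491 in tag 3 cells, with 9 and 15.5 counts of the second tag. A further 27 cells had tags 1 and 3 as their top pair, both at 50 counts or more, and were left without a tag. Just inside the limit of 50 counts lay 23 tag 1 cells and 2 tag 3 cells (50 to 59 counts), and just outside it 25 and 4 cells (40 to 49 counts). Barcodes with 2 tags were removed by this rule, doublets within a tag were not, and no other doublet caller was run. Of the deposited barcodes, 39 occurred in both experiments, 12 of them on cells of tags 1 and 3. Depth was alike on both sides. Tag 1 summed to 34290867 UMIs with a median of 31961 a cell, and tag 3 to 42684236 UMIs with a median of 30799.5. The median mitochondrial share was 3.71% and 3.53%. Both tags went through the same droplet run, so free RNA was shared between them.

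The label of Kit-high progenitors was checked against Kit, the receptor of stem cell factor. It stood at 33.3 CPM (UMIs of the gene per 1000000 UMIs of the tag) in tag 1 and 35.1 CPM in tag 3, a ratio of 1.05 (0.974 to 1.14), and a Kit UMI was found in 56.1% and 58.7% of the cells. Cells were also classed by marker lists, with at least 3 markers at 2 UMIs or more, and a cell could be in several classes. Uncommitted progenitor markers (Kit, Flt3, Cd34, Spi1, Lmo2, Bcl11a, Mef2c, Hhex) were met by 83.1% of tag 1 cells (80.7 to 85.3%) and 68.4% of tag 3 cells (65.9 to 71.0%). T-progenitor markers were met by 18.6% (16.2 to 21.1%) and 39.9% (37.2 to 42.6%). Granulocyte or monocyte markers went the other way, at 34.7% (31.8 to 37.7%) and 16.3% (14.4 to 18.4%), with all 12 markers detected in both tags. Rarer classes were natural killer (NK) or innate lymphoid cells at 0.773% and 7.01%, cells with mature T markers at 0.0966% (1 cell) and 2.29% (30 cells), erythroid or megakaryocyte at 0.0966% and 2.67%, mast or basophil at 0.483% and 1.6%, and stromal at 2.61% and 1.98%. The dendritic list was met by 6.57% and 61.7%, but it holds 4 class II antigen presentation genes. Its Cd209a was at 0 in both tags and its Clec9a and Xcr1 had 7 and 29 UMIs in tag 3 against 0 and 1 in tag 1. Siglech had 11 and 3 UMIs, and Itgax was at 11.2 and 8.76 CPM, so those cells are not called dendritic here. Beside each gene group below, the part of this shift in cell classes was not tested where no value within a class is given. In such sums, more cells of a type and more RNA per cell cannot be told apart. Below, cells of other classes are those of the granulocyte or monocyte, mast or basophil, dendritic, B-lineage, stromal, erythroid or megakaryocyte, or mature T list. NK or innate lymphoid markers alone did not remove a cell in that filter.

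A gene was counted if its CPM in tags 1 and 3 averaged 5 or more, which 8508 genes did. Of these, 135 (1.59%) were at least 2-fold higher in tag 3 and 61 (0.717%) at least 2-fold lower, 2.3% in all. The median log2 ratio over all of them was 0.01. At 4-fold the counts were 52 higher and 3 lower, and at 8-fold 22 and 0. Oas3 (2.02-fold higher) and Pld3 (2.02-fold higher) lay just inside the 2-fold limit and B2m (1.99-fold higher) and Ccl3 (1.99-fold higher) just outside it. On the lower side Itgb5 (2.00-fold) lay inside and Pygl (1.99-fold) and Tubb2a (1.98-fold) outside. The lists of interferon response, class I and class II genes, with 25, 14 and 10 of the 8508 counted genes, held 32 of the 135 higher genes (23.7%). The lists of primary granule, secondary granule and alarmin, monocyte and stromal genes held 11 of the 61 lower genes (18.0%). They had 7, 9, 11 and 10 counted genes, and share some. All lists were chosen with earlier results of these data known.

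**Figure D1:**
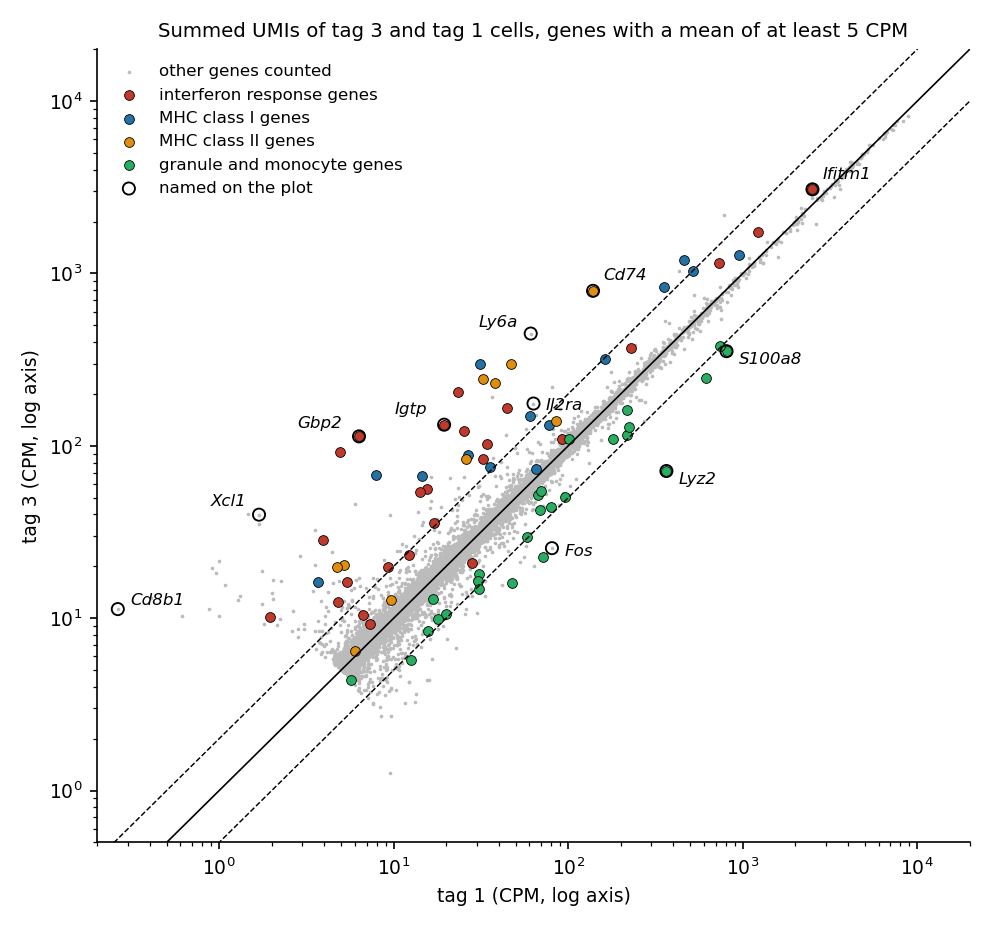
Level of each of 8508 genes in tag 1 (x axis) and tag 3 (y axis), in CPM on log axes, with the solid line at equal levels and dashed lines at 2-fold. Interferon response and antigen presentation genes lie mostly above the upper dashed line, and granule and monocyte genes lie near or below the lower one.

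Most interferon response genes were higher in tag 3. Of 28 listed genes 25 were counted, 24 had ratios above 1, and 16 were at least 2-fold higher in tag 3, none at least 2-fold lower, with a median log2 ratio of 1.38 against 0.01 over all counted genes. Gbp2, a guanylate-binding protein of cell-autonomous defence (ENSMUSG00000028270, chromosome 3, 142620663 to 142638008 on GRCm38), was at 6.33 CPM in tag 1 (5.51 to 7.23) and 113 CPM in tag 3 (110.3 to 116.7). Its ratio was 17.9 (15.7 to 20.6), one of the 5 highest ratios of genes averaging 20 CPM or more, and with tags called by HTODemux, another demultiplexing method, it was 29.1. Across tags 1 to 8 Gbp2 was at 6.33, 10.6, 113, 61.3, 139.8, 197.2, 21.0 and 31.8 CPM. Tag 1 was the lowest of the 8 and tag 3 the third highest, below tags 5 and 6. Iigp1, an immunity-related GTPase, was at 4.93 and 91.6 CPM, a ratio of 18.6 (15.9 to 21.8). In tag 1, 70.4% of its UMIs came from 5 cells, and with the 5 top cells of each tag left out the ratio was 55.6, and with HTODemux tags 69.0.

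With cells thinned to 12000 UMIs, a Gbp2 UMI was found in 5.73% of 995 tag 1 cells (4.37 to 7.36%) and 53.5% of 1244 tag 3 cells (50.7 to 56.3%). Unthinned, the shares were 13.4% and 73.7%. No cell class here is known to lack Gbp2, so the share from free RNA was not measured. Of the transcription factors of the response, Stat2 was at 6.68 and 10.4 CPM, Irf9 at 12.2 and 23.5 CPM, Irf7 at 12.2 and 23.1 CPM, and Irf1, an early target of interferon signals, at 32.4 and 84.2 CPM, a ratio of 2.60 (2.43 to 2.78).

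Guanylate-binding proteins and immunity-related GTPases, which act on the vacuoles of intracellular pathogens, were higher in tag 3. All 7 guanylate-binding protein genes counted passed 2-fold, 4 in a cluster on chromosome 3 (Gbp2, Gbp3, Gbp5, Gbp7) and 3 on chromosome 5 (Gbp4, Gbp8, Gbp9). On chromosome 11 all 6 immunity-related GTPase genes counted did so (Irgm1, Irgm2, Igtp, Ifi47, Tgtp1, Tgtp2), though Tgtp1 and Tgtp2 are near-identical copies whose counts may be split. Igtp was at 19.5 and 133 CPM, a ratio of 6.82 (6.29 to 7.40), Gbp7 at 25.2 and 122 CPM, a ratio of 4.83 (4.49 to 5.20), Irgm1 at 14.2 and 54.3 CPM, a ratio of 3.83 (3.47 to 4.23), and Ifi47 at 44.5 and 167 CPM, a ratio of 3.74 (3.54 to 3.96). Among genes best known as type I targets, Isg15 had a ratio of 2.99 (2.80 to 3.19), Ifit1 of 5.17 (3.99 to 6.79), Usp18 of 2.60 (2.18 to 3.12) and Oasl2 of 3.00 (2.54 to 3.54). Ifit1 moved to 17.0 without cells of other classes and to 2.67 where cells of the dendritic list were kept. Others of that kind were within 2-fold, with ratios of 1.27 for Oas1a and 0.745 for Ifi27l2a. The membrane restriction factors Ifitm1, Ifitm2 and Ifitm3, already at 2511, 1222 and 729.8 CPM in tag 1, had ratios of 1.23, 1.43 and 1.58. Of the negative regulators, Socs1 was at 16.4 and 66.0 CPM, a ratio of 4.01 (3.66 to 4.40), whereas Socs3 had a ratio of 0.782.

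The sequence before the transcription start is shown for the 5 higher interferon response genes with the highest ratios among those that average 20 CPM or more and have an entry, since these genes differed together. Sequences are the 250 bases before the start, from RefSeq on GRCm38.p6, read 5′ to 3′ along the gene's strand. Capitals mark matches on either strand to the GAS motif TTCNNNGAA or the ISRE motif GAAANNGAAA. Matches may overlap each other.
Gbp2, chr3:142620413-142620662, plus strand: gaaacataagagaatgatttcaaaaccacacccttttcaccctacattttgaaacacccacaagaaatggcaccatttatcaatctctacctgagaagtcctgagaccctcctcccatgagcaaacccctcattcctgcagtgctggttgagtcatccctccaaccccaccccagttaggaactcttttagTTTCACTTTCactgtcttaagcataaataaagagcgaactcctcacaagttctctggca
Igtp, chr11:58199306-58199555, plus strand: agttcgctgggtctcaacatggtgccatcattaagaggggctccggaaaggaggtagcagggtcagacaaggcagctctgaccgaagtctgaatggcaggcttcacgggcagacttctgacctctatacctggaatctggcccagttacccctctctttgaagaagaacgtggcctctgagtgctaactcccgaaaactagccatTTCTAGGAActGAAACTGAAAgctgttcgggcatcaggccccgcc
Gbp7, chr3:142530086-142530335, plus strand: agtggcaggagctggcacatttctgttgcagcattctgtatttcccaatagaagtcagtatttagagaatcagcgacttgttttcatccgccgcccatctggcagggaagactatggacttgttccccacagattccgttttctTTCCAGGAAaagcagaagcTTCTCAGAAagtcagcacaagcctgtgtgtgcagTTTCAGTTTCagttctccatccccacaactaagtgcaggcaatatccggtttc
Irgm1, chr11:48871421-48871670, minus strand: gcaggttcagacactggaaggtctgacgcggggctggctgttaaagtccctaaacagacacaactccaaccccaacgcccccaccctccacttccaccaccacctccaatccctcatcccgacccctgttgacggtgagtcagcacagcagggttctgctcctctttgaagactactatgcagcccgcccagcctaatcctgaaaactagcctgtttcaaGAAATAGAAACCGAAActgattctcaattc
Ifi47, chr11:49076337-49076586, plus strand: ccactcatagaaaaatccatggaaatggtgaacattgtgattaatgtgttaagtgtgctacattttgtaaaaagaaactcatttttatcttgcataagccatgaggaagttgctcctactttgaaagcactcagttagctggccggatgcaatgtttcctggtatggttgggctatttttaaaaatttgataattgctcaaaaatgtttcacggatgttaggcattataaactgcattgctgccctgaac
The Gbp2 window held 1 ISRE match, that of Igtp 1 GAS and 1 ISRE match, that of Gbp7 2 GAS and 1 ISRE, and that of Irgm1 2 overlapping ISRE matches, all within 106 bases of the start. The Ifi47 window held none, which says only that these letters are not in these 250 bases. Of the 135 higher genes 96 had an entry, and 39 of them (40.6%) had a GAS or ISRE match in at least 1 such window. Among the 41 lower genes with an entry it was 11 (26.8%), and among 6750 counted genes with an entry 682 (10.1%). A match is a description of the letters and not a bound site.

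Interferon genes themselves had few UMIs. Ifnb1 and every Ifna gene in the table had none in tags 1 and 3, and 3 UMIs, the limit taken for a count of 0, are 0.0875 CPM in tag 1 and 0.0703 CPM in tag 3. Ifng, the type II interferon, had 5 UMIs in tag 1 and 279 in tag 3 (0.146 and 6.54 CPM), below the level needed to be counted. Of those 279 UMIs, 270 (96.8%) came from the 30 cells with mature T markers, and 21 tag 3 cells held an Ifng UMI. The receptor genes Ifngr1 (66.2 and 62.8 CPM) and Ifnar1 (12.7 and 12.4 CPM) had ratios of 0.949 and 0.983, and Ifngr2 was at 22.98 and 12.02 CPM, a ratio of 0.523 (0.467 to 0.585). Jak1 and Jak2 had ratios of 1.19 and 1.22. The chemokine Cxcl10 was at 1.75 and 18.7 CPM, a ratio of 10.7 (8.20 to 14.1), with a UMI in 30 and 151 cells.

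**Figure D2:**
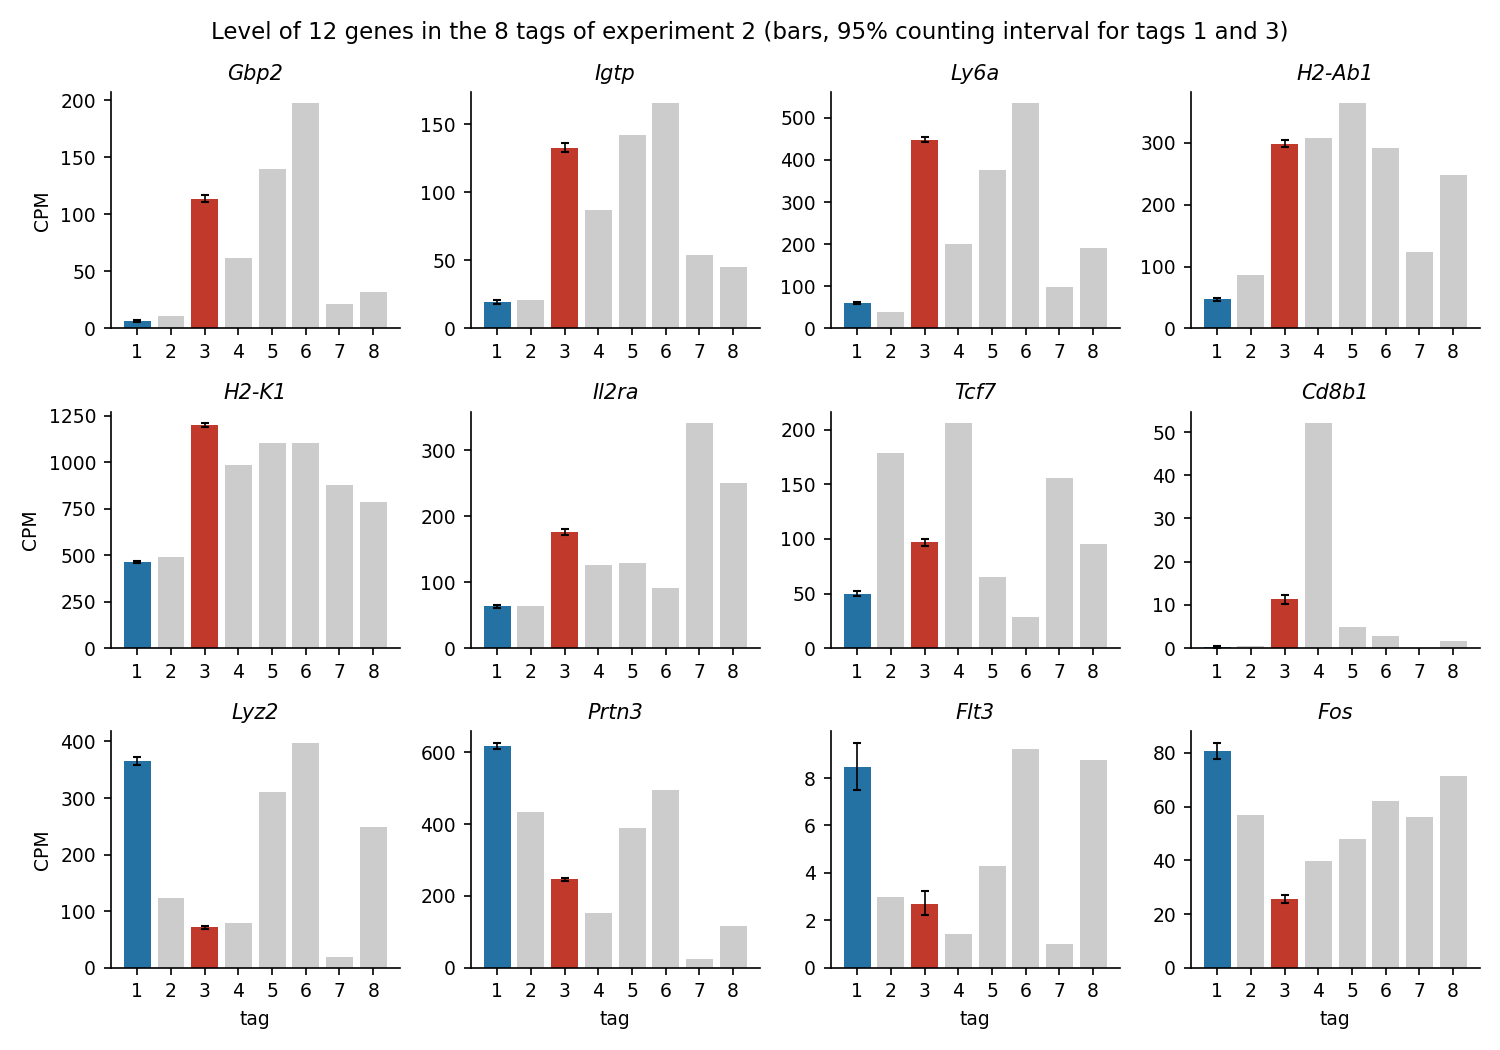
Level in CPM of 12 genes in the 8 tags of experiment 2, with tag 1 in blue, tag 3 in red, the other tags in grey and 95% counting intervals for tags 1 and 3. Gbp2, Igtp and Ly6a were high in tags 3, 5 and 6 and lower in tags 1, 2 and 7, whereas Lyz2 and Prtn3 were lower in tag 3 than in tags 1, 5 and 6.

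Antigen presentation genes were higher in tag 3 in both classes. Of 14 class I genes, all counted, 9 were at least 2-fold higher and all 14 had ratios above 1, with a median log2 ratio of 1.26. H2-K1, a classical class I heavy chain, was at 463 CPM in tag 1 and 1199 CPM in tag 3, a ratio of 2.59 (2.55 to 2.64), and H2-D1 had a ratio of 2.34 (2.29 to 2.39). H2-Q7 was at 31.2 and 299 CPM, a ratio of 9.59 (9.01 to 10.2), and H2-Q6 at 7.93 and 67.5 CPM, but these are near-identical copies whose counts may be split. The peptide transporter subunit Tap1 had a ratio of 2.45 (2.33 to 2.57) and its partner Tap2 of 1.12 (1.06 to 1.18). The immunoproteasome subunits Psmb9 and Psmb8 had ratios of 1.98 and 1.36. Nlrc5, the transactivator of class I genes, was at 3.70 and 16.2 CPM, a ratio of 4.38 (3.62 to 5.34). Over the H2 cluster of chromosome 17, 13 of 17 counted genes were at least 2-fold higher.

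All 10 class II genes were counted, 7 were at least 2-fold higher and all had ratios above 1, with a median log2 ratio of 2.02. H2-Ab1, the beta chain of I-A (ENSMUSG00000073421, chromosome 17, 34263227 to 34269418), was at 46.9 CPM in tag 1 (44.6 to 49.2) and 299 CPM in tag 3 (293.8 to 304.2), a ratio of 6.38 (6.06 to 6.72). Across the 8 tags it was at 46.9, 86.8, 299, 308.6, 364.3, 291.5, 123.1 and 247.5 CPM, so that tag 8 was also high here, unlike for Gbp2. H2-Aa (37.9 and 231 CPM), H2-Eb1 (32.4 and 245 CPM) and the invariant chain Cd74 (139 and 793 CPM) had ratios of 6.10, 7.57 and 5.72. Ciita, the master regulator of class II genes, was at 4.75 and 19.8 CPM, a ratio of 4.17 (3.53 to 4.97). The peptide loading genes H2-DMb1 and H2-DMb2 had ratios of 3.26 and 3.97, H2-DMa of 1.63, and the inhibitors H2-Oa and H2-Ob of 1.31 and 1.07. A UMI of H2-Ab1 was found in 16.3% and 67.5% of thinned cells (30.0% and 75.5% unthinned). Without the cells that met markers of another class, which left 612 cells of tag 1 and 399 of tag 3, H2-Ab1 had a ratio of 1.91, H2-Aa of 3.82, H2-Eb1 of 4.78 and Cd74 of 3.04, and 3 class II genes passed 2-fold. The same filter lowered H2-DMb1 to 1.59 and turned H2-DMb2 to 0.792, H2-DMa to 0.771 and H2-Ob to 0.425. H2-Ab1, H2-Aa, H2-Eb1 and Cd74 are on the dendritic list, so that filter removed cells by these very genes. With cells of the dendritic list kept, H2-Ab1 had a ratio of 7.35 and Cd74 of 6.76.

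These lists were then counted cell by cell. In cells thinned to 12000 UMIs, the median number of interferon response genes with a UMI was 7 of 25 in tag 1 and 12 in tag 3, and 89.9% of tag 3 cells lay above the tag 1 median. For class I genes the medians were 7 and 10 of 14, with 95.8% of tag 3 cells above the tag 1 median. For class II genes they were 1 and 5 of 10, with 80.0% above. Cells tied at the median count as not above it. Above the 90th percentile of tag 1 lay 65.8% (interferon response), 70.7% (class I) and 64.6% (class II) of tag 3 cells. Of tag 1 cells it was 7.14%, 9.65% and 9.35%. The 25th and 90th percentiles of tag 3 cells were 2 and 7 class II genes, and those of tag 1 cells were 0 and 3.

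**Figure D3:**
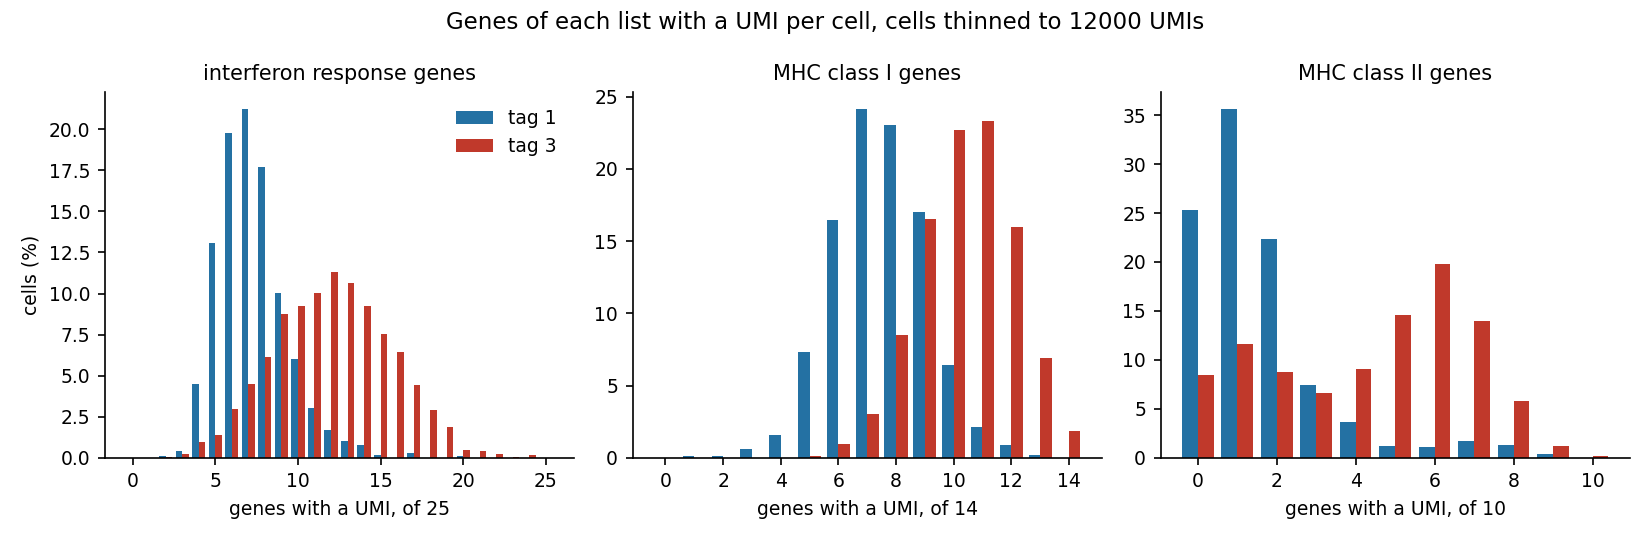
Share of cells (y axis, percent) by the number of genes of a list with a UMI (x axis) in 995 cells of tag 1 (blue) and 1244 cells of tag 3 (red), each thinned to 12000 UMIs. The tag 3 distribution lies to the right of tag 1 for interferon response (medians 7 and 12), class I (7 and 10) and class II genes (1 and 5).

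Gbp2, Igtp and H2-Ab1 were then taken within cell classes. Gbp2 was at 8.28 and 87.6 CPM in cells with T-progenitor markers (192 and 523 cells), a ratio of 10.6 (8.12 to 14.0). In cells with uncommitted progenitor markers (860 and 898 cells) its ratio was 19.1 (16.5 to 22.3), in cells with granulocyte or monocyte markers (359 and 214 cells) 24.6 (19.3 to 31.8), and in cells with stromal markers (27 and 26 cells) 8.44 (6.48 to 11.1). In cells with NK or innate lymphoid markers (8 and 92 cells) it was 3.48 (1.33 to 12.9), from 4 UMIs in tag 1. Without any cell that had a UMI of Cd8a, Cd8b1, Cd4, Trac or Cd40lg the Gbp2 ratio was 18.3 (15.98 to 21.1). Igtp had ratios of 3.61, 7.30, 8.42 and 5.48 in the first 4 of these classes, and H2-Ab1 of 4.18, 7.53, 5.82 and 3.63. In the 4 classes each ratio and its interval lay above 1. Class II genes did not do so in every class. In cells that met the dendritic list (68 and 810 cells), which holds H2-Ab1 and Cd74, H2-Ab1 was at 608.5 and 425.3 CPM, a ratio of 0.699 (0.660 to 0.741), Cd74 had a ratio of 0.560 (0.542 to 0.578) and the summed class II genes of 0.614 (0.601 to 0.628). Gbp2 and Igtp had ratios of 5.81 (4.34 to 7.99) and 5.46 (4.15 to 7.32) in these cells, and the summed interferon response genes of 0.924 (0.910 to 0.938). In cells with NK or innate lymphoid markers, 8 of them in tag 1, H2-Ab1 had a ratio of 1.39 (0.886 to 2.31). In these cells the summed class II genes had a ratio of 0.737 (0.647 to 0.842) and the summed interferon response genes of 0.788 (0.756 to 0.823). Over all cells the summed interferon response genes had a ratio of 1.52. Their ratio was 1.22 in cells with T-progenitor markers and 1.499 in cells with uncommitted progenitor markers. With granulocyte or monocyte markers it was 1.46, and with stromal markers 2.58. Such a sum follows its most abundant genes, Ifitm1, Ifitm2 and Ifitm3 among them, more than Gbp2 or Igtp. In the 30 tag 3 cells with mature T markers Gbp2 was at 9.05 CPM (11 UMIs), against 113 CPM over all tag 3 cells. Tag 1 had 1 such cell, so no comparison was made there.

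**Figure D4:**
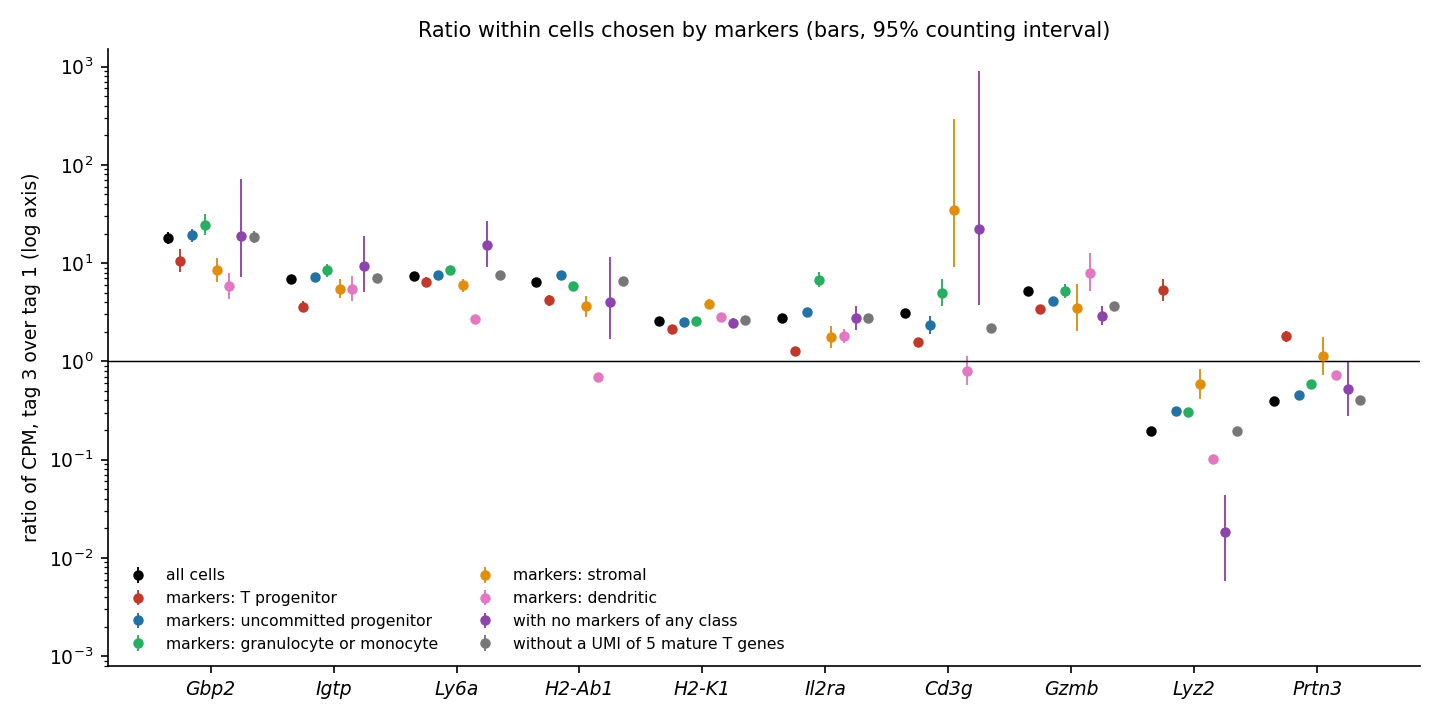
Ratio of CPM in tag 3 to tag 1 (y axis, log scale) of 10 genes in all cells and within cells chosen by markers, with 95% counting intervals. Gbp2, Igtp, Ly6a and H2-K1 lie above 1 in each of the 8 sets of cells shown, and H2-Ab1 in all but the cells of the dendritic list. Lyz2 and Prtn3 lie below 1 over all cells and above 1 in cells with T-progenitor markers. In cells with stromal markers Prtn3 is also above 1, at 1.12 (0.725 to 1.75). Il2ra and Cd3g are markers of the T-progenitor class, H2-Ab1 of the dendritic list, and Lyz2 and Prtn3 of the granulocyte or monocyte class.

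Ly6a (Sca-1), a surface protein of stem cells and an interferon target (ENSMUSG00000075602, chromosome 15, 74994877 to 74998031), was at 61.0 CPM in tag 1 (58.4 to 63.6) and 448 CPM in tag 3 (441.9 to 454.6). The ratio was 7.35 (7.03 to 7.69), and it was 6.47 and 7.56 in cells with T-progenitor and uncommitted progenitor markers. Across the 8 tags it was at 61.0, 38.9, 448, 201.5, 375.4, 534.8, 97.3 and 190.6 CPM, with tags 1 and 2 lowest. Serpina3f, a serine protease inhibitor, was at 1.46 and 40.1 CPM, a ratio of 27.5 (20.8 to 37.2), or 11.4 without cells of other classes, and Serpina3g at 80.9 and 221 CPM. These are close relatives whose reads may be split.

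T-lineage factors had ratios above 1 for 7 of the 8 counted, of 14 listed, and 2 were at least 2-fold higher (Bcl11b and Tox), none lower. Tcf7, a factor that Notch signals induce early, was at 49.6 CPM in tag 1 and 96.7 CPM in tag 3, a ratio of 1.95 (1.84 to 2.06), and Gata3 at 24.9 and 36.1 CPM, a ratio of 1.45 (1.33 to 1.58). Bcl11b, the commitment factor, was at 2.04 and 12.8 CPM, a ratio of 6.29 (4.90 to 8.19), with a UMI in 34 and 204 cells. Without cells of other classes its ratio was 11.4, the highest of the alternatives, and the lowest was 4.63, in thinned cells. The median log2 ratio of the T-lineage factor list was 0.75. It was 1.30 without cells of other classes and 0.64 with cells of the dendritic list kept. In tags 1 to 8 Tcf7 stood at 49.6, 178.7, 96.7, 206.2, 65.0, 28.2, 155.9 and 95.2 CPM, so that tags 2, 4 and 7 were above tag 3. Il2ra, the CD25 chain of the IL-2 receptor, was at 63.3 CPM (60.6 to 66.0) and 176 CPM (172 to 180), a ratio of 2.78 (2.65 to 2.92), with a UMI in 27.7% and 55.3% of cells. In the cells with T-progenitor markers, of which Il2ra is one, it was at 268.7 and 342.6 CPM, a ratio of 1.28 (1.21 to 1.34). Il7r, the IL-7 receptor, was at 5.66 and 14.5 CPM and Thy1 at 31.0 and 58.3 CPM, with ratios of 2.57 and 1.88.

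Notch receptors and targets were mostly near 1. Of 13 listed genes 8 were counted and only Il2ra was at least 2-fold higher, with none lower and a median log2 ratio of 0.10. Notch1 was at 41.0 and 42.9 CPM, Hes1 at 53.3 and 55.7 CPM and Nrarp at 19.4 and 18.7 CPM, and Dtx1 had a ratio of 1.52 (1.38 to 1.66). The Runx genes that the study perturbs were close in both tags. Runx1 was at 57.5 and 52.9 CPM, a ratio of 0.921 (0.866 to 0.979), Runx3 at 117 and 136 CPM, a ratio of 1.17 (1.12 to 1.21), and Cbfb, their partner subunit, at 39.3 and 38.4 CPM. These counts may include a vector's transcript, and guides that cut a gene need not lower its RNA. Bcl2, which all mice also carried as a transgene, was at 59.4 and 92.3 CPM, a ratio of 1.56 (1.47 to 1.64).

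T-cell receptor and signalling genes were partly carried by cells with mature T markers. Of 19 listed genes 12 were counted, all 12 had ratios above 1 and 6 were at least 2-fold higher (Cd3g, Cd3d, Cd247, Cd2, Skap1, Prkcq), with a median log2 ratio of 0.87. Cd3g was at 20.9 and 64.9 CPM, a ratio of 3.10 (2.86 to 3.37), and Cd3d at 3.53 and 32.6 CPM, a ratio of 9.23 (7.66 to 11.2). Cd2, an adhesion receptor, had a ratio of 16.8. Of the tag 3 Cd3g UMIs, 26.5% lay in the 30 cells with mature T markers. Without cells that met mature T, NK or innate lymphoid markers the ratios were 2.35 for Cd3g, 5.00 for Cd3d, 2.79 for Cd2, 2.11 for Cd247 and 2.77 for Skap1, and Prkcq of 1.84, and 3 of the list passed both limits. Without every cell with a UMI of 5 mature T genes, 3 genes of the list were counted and passed 2-fold. Constant genes of the gamma-delta receptor were also higher. Trdc was at 16.3 and 47.8 CPM, a ratio of 2.93 (2.67 to 3.22), and Tcrg-C4 at 15.4 and 56.1 CPM, a ratio of 3.65 (3.32 to 4.02), and without the cells that met mature T, NK or innate lymphoid markers the ratios were 2.91 and 3.54. Trbc2 was alike in both, at 640 and 663 CPM. Rag1 had 13 and 53 UMIs.

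Few cells carried markers of mature CD8 T cells, although lineage-negative cells were sorted. Cd8b1, the beta chain of CD8 and the only counted gene with under 10 UMIs in one of the tags, had 9 UMIs in tag 1 and 482 in tag 3 (0.262 and 11.3 CPM). The ratio of 43.0 (22.5 to 94.7) rests on those 9 UMIs, and 96.3% of the tag 3 UMIs came from 30 cells. Cd8a was at 1.28 and 12.7 CPM, and Trac, the constant gene of the alpha chain, at 0.992 and 10.2 CPM. Xcl1, a chemokine of activated cytotoxic cells, was at 1.69 and 39.9 CPM, a ratio of 23.6 (18.1 to 31.2), with a UMI in 17 and 74 cells. Without the 5 top cells of each tag its ratio was 55.6, and without cells that met mature T, NK or innate lymphoid markers it was 1.09. The same filter left ratios of 1.02 for Ccl4, which was at 2.01 and 14.1 CPM over all cells, and 1.64 for Gzmc, at 0.962 and 18.3 CPM over all cells. It left Ccl5, a chemokine of T and NK cells, at 7.30, against 7.66 (6.63 to 8.88) over all cells, where Ccl5 was at 6.04 and 46.2 CPM with a UMI in 104 and 465 cells.

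Of 15 listed granzymes and cytotoxic granule genes 8 were counted, and 5 were at least 2-fold higher in tag 3 and none lower. Granzymes are the proteases of cytotoxic granules. Gzmb was at 36.8 CPM (34.8 to 38.9) and 193 CPM (189.1 to 197.4), a ratio of 5.25 (4.95 to 5.58), with a UMI in 18.9% and 42.2% of thinned cells (28.7% and 54.6% unthinned). The share of cells that free RNA alone gives a Gzmb UMI was not measured. The 30 cells with mature T markers held 30.1% of the tag 3 UMIs, and without cells of mature T, NK or innate lymphoid markers the ratio was 3.75, though Gzmb is itself one of those markers. Gzma was at 433 and 1033 CPM, a ratio of 2.38 (2.34 to 2.43), and 3.72% of its tag 3 UMIs lay in the 30 cells. Nkg7, with a UMI in 892 and 1214 cells, and Srgn had ratios of 1.17 and 1.10. Among innate lymphoid genes, 4 of 11 counted were at least 2-fold higher (Il2rb, Pdcd1, Il7r, Tnfrsf9). Il2rb was at 1.75 and 12.1 CPM, a ratio of 6.91 (5.28 to 9.18), and 2.64 without the mature T, NK and innate lymphoid marker cells, of which it is a marker. Id2 had a ratio of 1.27.

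**Figure D5:**
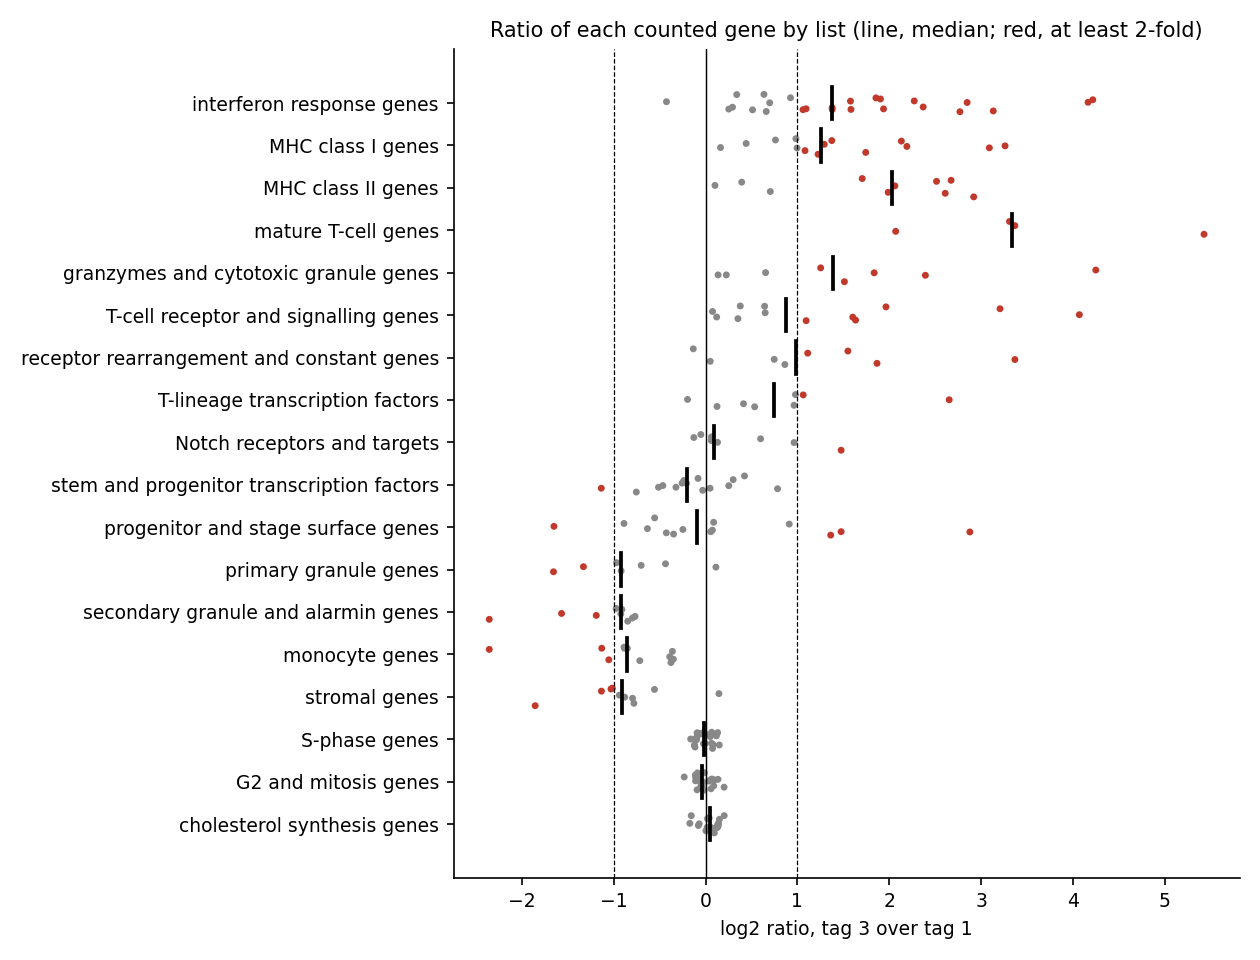
Log2 ratio of tag 3 to tag 1 (x axis) of each counted gene in 18 gene lists, with the list median as a black line, dashed lines at 2-fold and genes at least 2-fold apart in red. Lists of interferon response and antigen presentation lie to the right (medians 1.38, 1.26 and 2.02), granule, monocyte and stromal lists to the left, and cell cycle lists at 0.

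Among genes of the progenitor state 2 were at least 2-fold lower in tag 3, the receptor Flt3 and the factor Cebpa. Of 15 counted stem and progenitor factors 5 had ratios above 1, with a median log2 ratio of -0.21. Of 14 surface genes of progenitors and their stages 3 were at least 2-fold higher (Ly6a, Il7r, Il2ra) and 1 lower. Flt3, the receptor of Flt3 ligand and a mark of the earliest progenitors, was at 8.46 CPM (7.51 to 9.49) and 2.69 CPM (2.22 to 3.23), a ratio of 0.319 (0.254 to 0.397), with a UMI in 211 and 95 cells. Without cells of other classes the ratio was 0.082, the lowest of the alternatives. That filter left 612 tag 1 cells and 399 tag 3 cells, against 649 and 1005 where cells of the dendritic list were kept. It thus removed many tag 3 cells by class II genes. Cebpa, a myeloid factor, was at 12.5 and 5.67 CPM, a ratio of 0.455 (0.387 to 0.534). Spi1 (PU.1) was at 255 and 185 CPM, Mef2c at 154 and 108 CPM and Hoxa9 at 19.8 and 11.8 CPM, with ratios of 0.725, 0.701 and 0.593. Lyl1, Hhex and Lmo2 had ratios of 0.979, 0.945 and 0.838, and Myb was on the other side at 1.23. Cd34 was at 170 and 126 CPM.

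Some granule and monocyte genes were lower in tag 3, beside a share of cells with granulocyte or monocyte markers of 34.7% in tag 1 and 16.3% in tag 3. Lyz2, the lysozyme of myeloid cells (ENSMUSG00000069516, chromosome 10, 117277541 to 117282272), was at 365 CPM in tag 1 (359.0 to 371.8) and 71.4 CPM in tag 3 (68.9 to 74.0), 5.11-fold lower (4.92 to 5.32). A Lyz2 UMI was found in 33.6% and 17.4% of thinned cells (53.7% and 32.3% unthinned). Within cells with granulocyte or monocyte markers, of which Lyz2 is one, it was at 861.2 and 259.8 CPM, a ratio of 0.302 (0.289 to 0.315). Within cells with T-progenitor markers it was higher in tag 3, at 10.02 and 52.99 CPM, from 69 and 948 UMIs. Prtn3, the proteinase 3 of primary granules, was at 618 and 246 CPM, a ratio of 0.398 (0.389 to 0.407), and Elane, neutrophil elastase, at 71.5 and 22.7 CPM, a ratio of 0.317 (0.294 to 0.342). Of the 7 primary granule genes 2 were at least 2-fold lower, of 9 counted secondary granule and alarmin genes 3 (S100a8, Chil3, Lyz2), and of 11 counted monocyte genes 3 (Lyz2, Cybb, Fcgr3), with none at least 2-fold higher. The other 5, 6 and 8 genes were within 2-fold, and 1 primary granule gene had a ratio above 1. The 3 median log2 ratios were -0.92, -0.92 and -0.85. Without cells of other classes they were -0.43, 0.07 and -0.71, and with cells of the dendritic list kept, -0.21, 0.05 and 0.05. With HTODemux tags they were -0.39, -0.08 and -0.63. Elane had a ratio of 0.834 without cells of other classes. Elane, Prtn3, Lyz2 and S100a8 are granulocyte or monocyte markers, so both cell filters removed cells by genes of these lists.

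Several of these rested on few cells. S100a8, an alarmin of neutrophils, was at 808 and 354 CPM, a ratio of 0.438 (0.430 to 0.447), but 5 cells held 41.0% of its UMIs in tag 1 and 52.1% in tag 3. When tags were called with HTODemux, its ratio was 0.831, and the median log2 ratio of the secondary granule and alarmin list was -0.08 in place of -0.92. With a top tag of at least 5 times the second and 100 counts these were 0.782 and 0.06. Chil3 (47.7 and 16.1 CPM) had 50.5% and 58.7% of its UMIs in 5 cells. Other lower genes of myeloid cells were Hp (haptoglobin), Ctsh (cathepsin H), Tgfbi and Cybb (an NADPH oxidase subunit), with ratios of 0.313, 0.373, 0.409 and 0.482. Of the 61 lower genes, 34 (55.7%) were also at least 2-fold lower with HTODemux tags, against 126 of the 135 higher genes (93.3%).

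Of 10 counted stromal genes 4 were at least 2-fold lower in tag 3 (Col1a1, Col1a2, Mgp, Cald1), 6 were within 2-fold and 1 had a ratio above 1. Their median log2 ratio was -0.91, and it was 0.29 without cells of other classes and 0.09 with cells of the dendritic list kept. Col1a1 and Col1a2 are among the stromal markers, so both filters removed cells by genes of this list. Stromal markers were met by 27 and 26 cells although the cells had been sorted as CD45+, and their median UMI counts were 54812 and 56948.5. Col1a1, a collagen chain, was at 57.4 and 26.1 CPM, a ratio of 0.456 (0.423 to 0.491), and Ogn, Spp1, Acta2 and Serpinh1 had ratios of 0.408, 0.401, 0.357 and 0.482. With cells of other classes left out, the ratios of Col1a1, Spp1 and Serpinh1 turned to 1.22, 2.10 and 2.23. Fos, an immediate early transcription factor, was at 80.7 CPM (77.7 to 83.8) and 25.5 CPM (24.0 to 27.1), a ratio of 0.316 (0.294 to 0.339), with a UMI in 51.3% of thinned tag 1 cells and 22.99% of thinned tag 3 cells (75.8% and 41.2% unthinned). The related genes Jun, Junb and Fosb had ratios of 1.18, 1.01 and 0.919. Fos was the only one of 14 counted immediate early and heat shock genes to pass 2-fold.

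Cell cycle and housekeeping lists held 1 gene past 2-fold. None of 25 S-phase genes and 25 G2 and mitosis genes was 2-fold apart, with median log2 ratios of -0.02 and -0.04. None of 80 ribosomal protein genes, 78 nuclear oxidative phosphorylation genes, 18 cholesterol synthesis genes or 29 histone genes passed either. Of 18 glycolysis genes 1 did, Pgam2, with a ratio of 4.47.

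The pattern was set beside other pairs of tags of the same run, whose conditions are also unknown. Tag 4 against tag 2 shares no cells with tag 3 against tag 1. There, 222 of 8974 genes (2.47%) were at least 2-fold higher and 61 (0.68%) lower, and 95 genes were higher in both pairs, which is 70.4% of the 135 and 42.8% of the 222. Of the 61 and 61 lower genes 12 were shared. Of the 135 higher genes 133 had a ratio above 1 for tag 4 against tag 2, and 84 for tag 5 against tag 7. The share of all counted genes with a ratio above 1 in these pairs was not taken, so these counts have no background. Tag 5 against tag 7, which also shares no cells, had 399 genes higher (4.62%) and 185 lower (2.14%). Of these, 46 higher genes were shared with tag 3 against tag 1, which is 34.1% of the 135 and 11.5% of the 399, and 0 lower genes. Gbp2 was at 61.3 CPM in tag 4 and 10.6 in tag 2, and at 139.8 in tag 5 and 21.0 in tag 7. Lyz2 was at 78.4 CPM in tag 4 and 124.0 in tag 2, and at 311.2 in tag 5 and 19.5 in tag 7, so that tag 5 against tag 7 went the other way for Lyz2. Pairs that share tag 1 or 3 with this comparison were tag 2 against tag 1, with 261 genes higher (3%) and 79 lower (0.907%), and tag 4 against tag 3, with 358 higher (4.08%) and 44 lower (0.501%).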

How the data were processed

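Single-cell mRNA and hashtag libraries of experiment 2 were analysed, both deposited as raw counts. The mRNA matrix holds UMI counts per gene and cell and the hashtag table holds counts per cell for 8 hashtags, both deposited by the authors without normalization. Whether hashtag counts are UMIs or reads is not given in the sources used here. Cell Ranger 3.0.0 and the builds GRCm38 and mm10 are named in the submitters' processing notes. Gene positions are those of RefSeq on GRCm38.p6.

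UMIs of the cells of each tag were summed with Python 3.11.15 and scipy 1.17.1, divided by the tag's total and scaled to 1000000 (CPM). CPM have exact Poisson intervals, ratios exact conditional intervals and shares Clopper-Pearson intervals at 95%. Only the ratio intervals were checked, on simulated Poisson counts. Those lack the clumping of UMIs in single cells, so the check could not show how the intervals do on these data. With 1 culture a side no test was possible, so no p-value is given. Genes averaging 5 CPM or more over both tags were counted. For scarce genes 3 UMIs a tag is the least that is read as present, which is 0.0875 CPM in tag 1 and 0.0703 CPM in tag 3. Of 31053 genes, 30934 had their ID in the name table, and 71 genes whose symbol is not unique were not merged.

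Named genes were the 15 highest and 15 lowest ratios at an average of 20 CPM or more and 10 UMIs in the lower tag, up to 5 a direction with fewer UMIs, the gene lists, and a few genes named after their values were seen (the GTPase families, Serpina3g, Cxcl10, Socs1, interferon, receptor and Jak genes, Itgb5, Pygl, Tubb2a, Oas3, Pld3 and Fgf3). The tags, lists and markers were chosen with earlier results of these data known. Alternatives covered tag calls (HTODemux in Seurat 5.3.0 at quantile 0.99, stricter ratios), cell filters, thinning to 12000 UMIs, means over cells, and TMM (edgeR 4.0.16) or DESeq2 1.42.0 scaling. Experiment 1 was not analysed here beyond counting its cells. Some genes are not reported here.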

Additional observations from a re-analysis of the deposited data

How the results depend on the processing

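The number of genes at least 2-fold higher was 135. It was 231 without cells with markers of another class, but 100 where cells of the dendritic list were kept. With a minimum mean of 20 CPM it was 54, and with at least 10 UMIs over both tags and no other minimum 680. The 61 lower genes became 39 with HTODemux tags, 36 where the top tag held 100 counts and 5 times the next tag, 106 with means over cells, 17 with the minimum of 20 CPM, 627 with at least 10 UMIs over both tags and no other minimum, and 13 without cells with markers of another class other than dendritic, a filter chosen after seeing the data. The share of higher genes among all calls was 68.9%, and 77.6% with HTODemux tags, 58.8% without mature T, NK or innate lymphoid marker cells, 52.0% with at least 10 UMIs and 88.5% with the added filter. TMM and DESeq2 size factors gave 138 and 135 higher genes and 59 and 62 lower genes, and the median over all genes moved by under 0.1 under each scaling. Class II genes at least 2-fold higher went from 7 to 3 without cells with markers of another class. T-cell receptor and signalling genes went from 6 to 3 without mature T, NK or innate lymphoid marker cells, 3 without cells with a UMI of mature T genes and 2 without other classes but dendritic, these being filters chosen after seeing the data. Of the 1035 cells of tag 1, 612 were left without cells of other classes and 649 where cells of the dendritic list were kept. Of the 1312 cells of tag 3 these filters left 399 and 1005.

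Without cells of other classes, ratios crossed 1 for S100a8 (1.05), Spp1 (2.10), Col1a2 (1.39), Mgp (1.39), Serpinh1 (2.23), Col1a1 (1.22) and H2-DMb2 (0.792), and with the dendritic list left out of that filter for Cybb (1.02), S100a8 (1.03), Spp1 (1.30), Col1a2 (1.07), Serpinh1 (2.29) and Col1a1 (1.06). Klrd1 was at 0.870 without mature T, NK or innate lymphoid marker cells. The cause was not tested, beyond the cells and markers that these filters remove by construction. Over all genes in the lists and alternatives, 4654 ratios stayed within the counting interval of the reported value, 1150 left it, and 14 ratios of genes at least 2-fold apart crossed 1. Without cells with a UMI of the 5 mature T genes no median could be given for the mature T and the receptor rearrangement lists, whose Trac is then at 0. No paired analysis was possible because each side is 1 culture and hashtags carry no replicate number.

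Depth limits the scarce genes: 3 UMIs are 0.0875 CPM in tag 1.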

Other observations

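Haemoglobin Hbb-bt, the adult beta-globin minor gene, was at 781 CPM in tag 1 and 2175 CPM in tag 3, a ratio of 2.79 (2.75 to 2.82). A UMI was found in 63.8% and 81.4% of thinned cells (77.0% and 85.0% unthinned). Without cells of other classes the ratio was 1.79, but Hbb-bt is among the erythroid or megakaryocyte markers of that filter. The filter also removed cells of the dendritic list, in which Hbb-bt was at 271.7 and 2394 CPM. Within cells with T-progenitor markers it was at 1213 and 2365 CPM, and within cells with granulocyte or monocyte markers at 454.8 and 1692 CPM. In the 30 tag 3 cells with mature T markers it was at 209 CPM (254 UMIs). Its near-identical copy Hbb-bs had 46 and 137 UMIs, Hba-a1 3 and 1, and the counts of such copies may be split. Of the genes of red-cell precursors, Car1 had 1 and 197 UMIs, Klf1 8 and 92 and Gata1 5 and 77. Itga2b, an integrin of megakaryocytes and early progenitors, was at 13.8 and 41.1 CPM, a ratio of 2.99 (2.70 to 3.31), and Cpa3, a mast cell protease also found in progenitors, at 44.1 and 115 CPM, a ratio of 2.61 (2.46 to 2.76). Mcpt4 had 1 and 200 UMIs, and Mcpt8, a basophil protease, was at 41.5 and 80.5 CPM. Fgf3, a fibroblast growth factor, was at 23.2 and 57.1 CPM. Gimap genes, GTPases of lymphocyte survival, were above 1 for all 5 counted, with Gimap5 at 6.42 and 15.3 CPM and Gimap7 at 2.62 and 8.39 CPM. Cd8b1 was highest in tag 4, at 52.1 CPM.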
